A study of Mus musculus with 11 samples.

Results

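The nuclear genes of the mitochondrial respiratory chain and of ATP synthase were followed through 11 mouse lung libraries. Members were all genes of the deposited table whose symbol marks a subunit of complex I (Nduf followed by a, b, c, s or v and a number), complex II (Sdha to Sdhd), complex III (Uqcr), complex IV (Cox4 to Cox8) or complex V (Atp5). This name rule took 84 of the 24515 genes: 37 of complex I, 4 of complex II, 8 of complex III, 18 of complex IV and 17 of complex V. The rule also takes a few genes by name alone: Ndufa4, now known as a complex IV subunit, its relative Ndufa4l2, Cox7a2l, a factor that joins complexes III and IV, and Atp5s and Atp5sl, which are no core subunits of ATP synthase.

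All 5 mice carried the germline deletion Gprc5a-/-, the loss of a receptor of the lung epithelium, and all received intraperitoneal NNK, a nitrosamine of tobacco smoke, at 50 mg/kg 3 times a week for 8 weeks. From these mice came 5 adjacent normal lungs and 6 tumors, 3 with the title tag ADN and 3 with the tag ADC, which the labels do not spell out. Mouse m335, killed 4 months after NNK, gave tumors of both tags, which are set against the same normal lung. An ADN tumor each came from mouse m368 (6 months) and mouse m350 (7 months), and the other ADC tumors from mice m372 and m378 (both 7 months). Neither untreated mice nor mice with intact Gprc5a were analysed here, so the normal lungs share both the deletion and the NNK with the tumors.

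Complexes I to IV pass electrons from NADH and succinate to oxygen and pump protons across the inner mitochondrial membrane, and complex V uses the proton gradient to make ATP. Most subunits are made in every tissue, but several subunits of complex IV exist as alternative isoforms: Cox4i2 is the form known from lung, Cox6a2, Cox7a1 and Cox8b are heart and skeletal muscle forms, Cox8b is also a gene of brown fat, and Cox6b2, Cox7b2 and Cox8c are known from testis. The subunits encoded by mitochondrial DNA were not analysed here.

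Libraries held between 19938822 and 46987587 counts, and the members took 0.641% to 0.862% of them in 10 libraries and 1.14% in the ADC tumor of mouse m335. CPM are counts scaled per library size, here sizes adjusted by TMM, the trimmed mean of M-values. Gprc5a was at 0 to 0.642 CPM in the 11 libraries. The ADC tumor and the normal lung of mouse m335 stood apart in the summed level of the members, its normal lung with 8182 CPM against 6276 to 6756 CPM in the other 4 normal lungs, and its ADC tumor with 11530 CPM against 7069 to 8466 CPM in the other 5 tumors. Of the 84 members 82 had enough counts to be tested; Cox7b2 had 2 counts in all, both in the normal lung of mouse m350, and Cox8c had 0 counts in every library.

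Promoters are shown for the 2 members that rose in the tumors, Ndufa12 and Uqcrfs1, and for a muscle isoform that fell, Cox8b, beside its general counterpart Cox8a. Each line gives the 250 bases before the start in the RefSeq promoter table (GRCm38.p6), 5′ to 3′ on the strand of the gene. For Ndufa12 that start lies downstream of the transcript start in the deposited table, so the last bases of its window fall within that transcript. The windows are chr10:94198785-94199034 (plus strand) for Ndufa12, chr13:30545317-30545566 (minus) for Uqcrfs1, chr7:140900447-140900696 (minus) for Cox8b and chr19:7217617-7217866 (minus) for Cox8a. Capitals mark a match to the short NRF1 motif GCGCNTGCG in Ndufa12 and to the E-box CAGCTG in Cox8b.
Ndufa12: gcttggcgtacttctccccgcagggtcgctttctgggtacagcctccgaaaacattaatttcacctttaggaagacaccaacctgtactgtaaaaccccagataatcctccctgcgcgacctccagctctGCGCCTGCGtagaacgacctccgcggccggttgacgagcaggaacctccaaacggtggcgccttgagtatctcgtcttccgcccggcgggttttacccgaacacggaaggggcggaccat
Uqcrfs1: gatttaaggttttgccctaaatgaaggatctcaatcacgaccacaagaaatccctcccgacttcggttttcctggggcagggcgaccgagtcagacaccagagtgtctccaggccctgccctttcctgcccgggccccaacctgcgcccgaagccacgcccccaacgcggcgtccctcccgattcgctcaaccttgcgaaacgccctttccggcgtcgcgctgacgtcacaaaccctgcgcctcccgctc
Cox8b: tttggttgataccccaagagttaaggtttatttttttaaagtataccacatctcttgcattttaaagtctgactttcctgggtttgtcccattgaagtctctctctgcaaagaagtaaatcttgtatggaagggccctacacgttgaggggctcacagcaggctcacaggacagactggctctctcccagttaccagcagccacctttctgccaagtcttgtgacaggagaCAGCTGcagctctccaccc
Cox8a: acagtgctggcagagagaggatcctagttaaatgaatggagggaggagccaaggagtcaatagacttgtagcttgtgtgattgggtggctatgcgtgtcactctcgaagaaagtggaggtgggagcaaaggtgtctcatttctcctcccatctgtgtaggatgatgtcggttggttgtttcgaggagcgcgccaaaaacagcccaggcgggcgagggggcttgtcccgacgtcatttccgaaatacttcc

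The promoters vary in their content of CpG dinucleotides, which are dense at the start of most genes that every tissue uses. Ndufa12 has 22 CpG and Uqcrfs1 has 23 CpG in the 250 bases, while Cox8b has 1 CpG against 11 in Cox8a, and Cox7a1 has 4 CpG against 14 in its counterpart Cox7a2. Over the 66 members with an entry in the promoter table the median was 14 CpG per window, and over all promoter windows it was 6. Some general subunits are at or near the count of Cox7a1, among them Ndufc2 with 4 CpG and Uqcr10 with 5, so a low count is not particular to the muscle isoforms. Ndufa12 carries the short NRF1 motif, named for a factor known to act on many respiratory genes, 120 bases before the start in the promoter table; this short form was added after the sequence had been seen. Searched on both strands, GCGCNTGCG was in the windows of 24.2% of the 66 members and of 5.88% of all 27025 genes with an entry, and the full form (GCGC, then A, any base and GCGC), which always contains the short form, in 19.7% and 4.23%. The ETS motif CCGGAAG was in 18.2% of members and 7.83% of all genes, the YY1 motif AANATGGCG in 4.55% and 1.29%, and the E-box CAGCTG in 9.09% and 14.7%. The set of all genes was not matched to the members in CpG content. The part of CpG content in these shares was not tested. Cox4i2, Ndufa4l2 and Cox6a2 have no entry.

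The comparison of all tumors with the normal lungs asks which subunit genes differ between a tumor and the lung it grew in. Uqcrfs1, the Rieske iron-sulfur protein of complex III, and Ndufa12, an accessory subunit of complex I, rose, and 3 isoform genes fell: Cox4i2, Ndufa4l2 and Cox8b. With the mouse as a block, 5 of 82 tested members passed an adjusted p of 0.05 (edgeR quasi-likelihood test, Benjamini-Hochberg), or 6.1%, against 11.6% of all 15175 genes tested. By direction these are 2.44% higher against 3.68% of all genes and 3.66% lower against 7.91%, so the members were called no more often than genes at large. Most of the other members had small positive values: 63 of 82 were above 0, or 76.8%, against 47.9% of all genes. The members' median log2 fold change was 0.21 against -0.03 over all genes. At an unadjusted p under 0.05 the edgeR test left 16 members, 13 higher and 3 lower, where it left 26.4% of all genes in either direction and 10.8% higher. The 5 called members among 1759 called genes became 10 among 2242 without the mouse as a block and 11 among 3040 in the mice at 7 months. When a library or mouse was left out the count ran from 2 (without the normal lung of m335, among 1032 genes, or any library of m350) to 11 (without the ADC tumor of m335, among 3377 genes). The positive count depends on the scaling: on library totals 45 of 82 were above 0 with a member median of 0.02, since this scaling shifts the median of all genes to -0.22, and relative to that shift the members stood at 0.24 under both scalings.

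**Figure D1:**
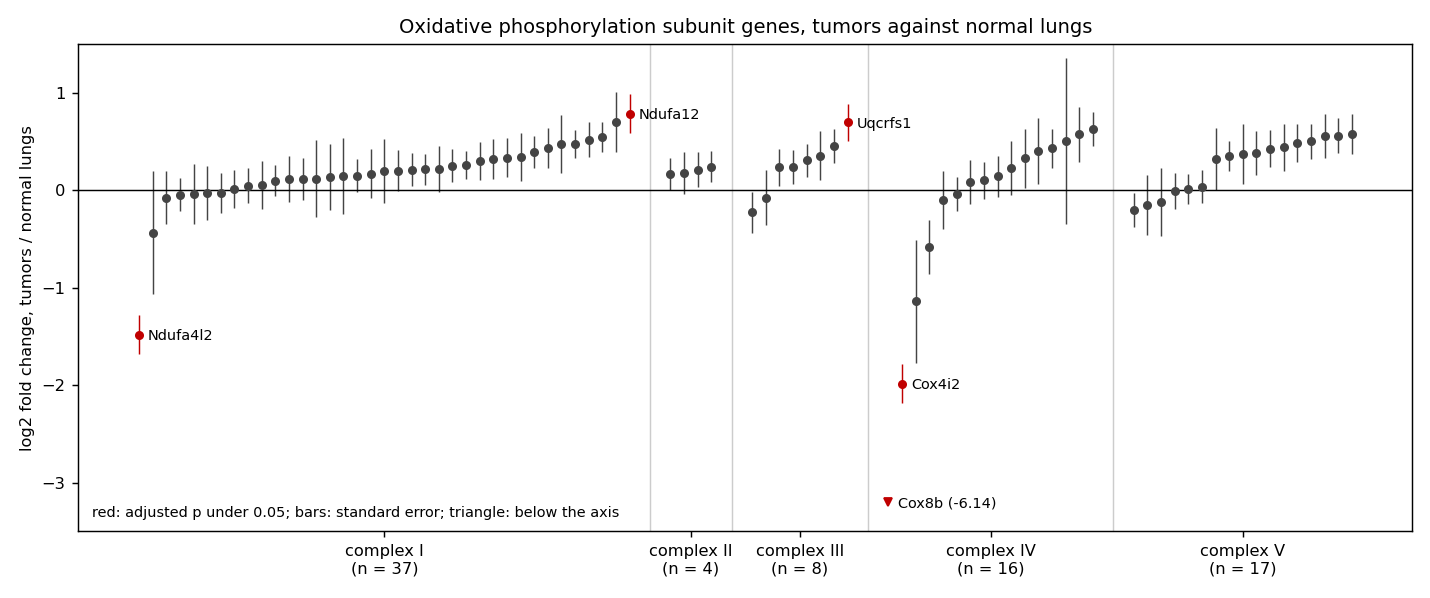
Log2 fold change of each tested member in tumors against normal lungs (y axis), grouped by complex along the x axis and ordered within it; points are estimates from the edgeR fit and bars their standard errors. The 5 members past the adjusted threshold are red, and Cox8b at -6.14 lies below the axis; complex II spans 0.16 to 0.24.

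Cox4i2, the lung form of the regulatory subunit 4 of cytochrome c oxidase, was the member with the smallest p (chromosome 2, 152754173 to 152765038, mm10, ends as deposited). It stood at 135.5, 66.3, 88.5, 66.9 and 81.4 CPM in the normal lungs of mice m335, m368, m350, m372 and m378. In the ADN tumors of m335, m368 and m350 it was at 23.7, 28.3 and 25.2 CPM, and in the ADC tumors of m335, m372 and m378 at 31.0, 16.4 and 15.2 CPM. Every tumor was below every normal lung. The log2 fold change was -1.99 (SE 0.202, adjusted p = 0.000899 by edgeR). By tag it was -1.89 in ADN tumors (SE 0.288, adjusted p = 0.0118 by edgeR) and -2.07 in ADC tumors (SE 0.281, adjusted p = 0.00848 by edgeR). Its counterpart Cox4i1, made in every tissue, was at 234 to 337 CPM in normal lungs and 232 to 564 CPM in tumors, with a log2 fold change of 0.43 (SE 0.197, adjusted p = 0.206 by edgeR). Per kilobase of transcript, Cox4i2 made up 25.0% ± 3.03 (SD, n = 5) of the sum of both forms in normal lungs, between 22.3% and 29.3%, and 6.40% ± 2.76 (SD, n = 6) in tumors, between 3.44% and 11.2%. Reads of Emc8, which overlaps Cox4i1 on the other strand, cannot be told apart from its own without strand; Emc8 was at 36.0 to 61.9 CPM.

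Ndufa4l2, a relative of Ndufa4 known as a hypoxia-induced gene, fell as well (chromosome 10, 127514939 to 127517157). Its levels were 40.5, 13.3, 29.1, 15.9 and 21.2 CPM in the normal lungs of m335, m368, m350, m372 and m378. The ADN tumors of m335, m368 and m350 had 11.2, 4.61 and 9.50 CPM, and the ADC tumors of m335, m372 and m378 had 9.33, 7.75 and 10.3 CPM. Normal lungs and tumors did not overlap. The log2 fold change was -1.48 (SE 0.203, adjusted p = 0.00242 by edgeR), with -1.56 (SE 0.284) in ADN and -1.40 (SE 0.29) in ADC tumors. Ndufa4 itself had a log2 fold change of -0.03 (SE 0.28, adjusted p = 0.96 by edgeR). Shmt2, which overlaps Ndufa4l2 on the other strand, had a log2 fold change of 0.44 (SE 0.173, adjusted p = 0.142 by edgeR), the opposite sign.

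**Figure D2:**
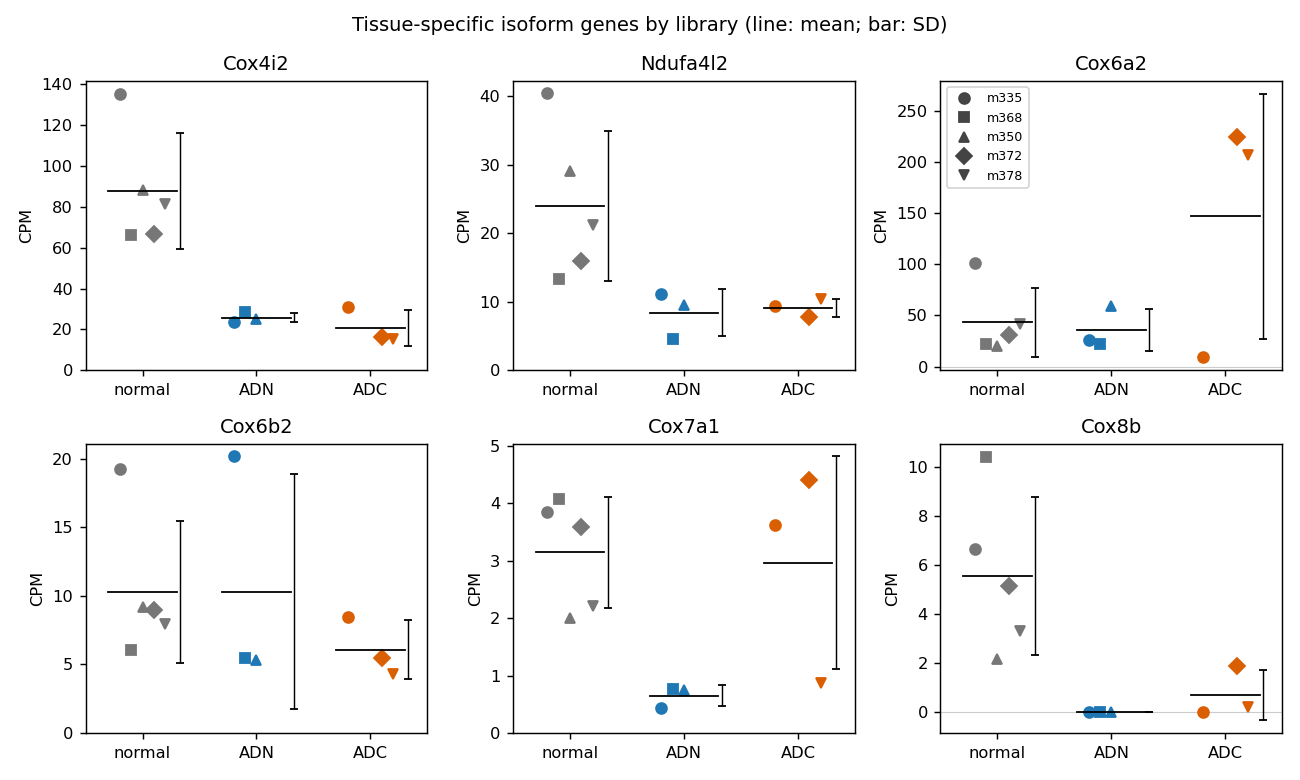
CPM (y axis) of 6 tissue-specific isoform genes in each library, by group on the x axis; marker shapes give the mouse, the line the mean and the bar the SD (5 normal, 3 ADN, 3 ADC). Cox4i2 and Ndufa4l2 are lower in all 6 tumors, Cox8b is at 0 in the 3 ADN tumors, and Cox6a2 is above 200 CPM only in the ADC tumors of m372 and m378.

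Both genes are known from the wall of small vessels, and several markers of vessels were lower in the tumors. Of 11 pericyte and smooth muscle markers 4 were lower in the tumors by the edgeR test and 0 higher (Higd1b, Notch3, Myh11 and Des), with a list median of -1.1; the defining markers Pdgfrb and Abcc9 were at -0.09 and -0.01 (log2), and Rgs5 at 1.26 (SE 0.423, adjusted p = 0.0961 by edgeR). The summed level of the list was 447 to 873 CPM in normal lungs and 268 to 469 CPM in tumors, and no marker was at 0 in all tumors. All 4 endothelial markers fell (Cldn5, Pecam1, Cdh5 and Vwf), with a median of -2.48 and a summed level of 1930 to 3273 CPM in normal lungs and 394 to 615 CPM in tumors. In bulk tissue, fewer cells of a type and less RNA per cell cannot be told apart, and the part of these cells in the 2 falls was not tested. Of 12 hypoxia response genes 1 was lower, Vegfa at -1.89 (SE 0.278, adjusted p = 0.00334 by edgeR), and the list median was 0.08 (-0.11 on library totals).

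Cox8b, the muscle form of subunit 8, was low in the normal lungs and lower still in the tumors (chromosome 7, 140898942 to 140900447). Normal lungs of m335, m368, m350, m372 and m378 had 6.66, 10.4, 2.17, 5.13 and 3.30 CPM, or 869 counts in all. The 3 ADN tumors and the ADC tumor of m335 held 0 counts, the ADC tumor of m372 held 80 and that of m378 held 5. All tumors lay below all normal lungs. Over the groups, ADN tumors were 160-fold lower than normal lungs when their 0 counts are set to a floor of 3 counts. The 95% interval, with counting error on both sides, starts at 130-fold. ADC tumors were 6.4-fold lower in pooled counts (95% interval 5.12 to 8.09, which covers counting error only), and most of their counts came from m372. Their fitted log2 fold change was -4.06 (SE 1.49, adjusted p = 0.223 by edgeR), which did not pass. Over all tumors the fitted log2 fold change was -6.14 (SE 1.38, adjusted p = 0.0225 by edgeR). The call was lost, at adjusted p between 0.0503 and 0.117 by edgeR, when any library of mouse m368 or m350, the normal lung of m335, the ADN tumor of m335 or the whole mouse m335 was left out, and at 0.0561 without the mouse block and 0.0688 among the mice at 7 months.

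Cox7a1, the muscle form of subunit 7a, was at 2.01 to 4.07 CPM in the normal lungs. In the ADN tumors of m335, m368 and m350 it was at 0.435, 0.768 and 0.750 CPM, while the ADC tumors of m335, m372 and m378 had 3.62, 4.41 and 0.869 CPM. The ADC tumors of m335 and m372 were thus within or above the range of the normal lungs and the other 4 tumors below it. The tumor contrast was -1.14 (log2, SE 0.627, adjusted p = 0.293 by edgeR), with -2.39 (SE 0.655, adjusted p = 0.0681 by edgeR) in ADN tumors and -0.20 (SE 0.589, adjusted p = 0.902 by edgeR) in ADC tumors.

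Cox6a2, the heart and skeletal muscle form of subunit 6a, was high in 2 tumors (chromosome 7, 128205435 to 128206367). It was at 101, 22.3, 20.1, 31.0 and 41.5 CPM in the normal lungs of m335, m368, m350, m372 and m378. The ADN tumors of m335, m368 and m350 had 25.8, 22.2 and 59.0 CPM, and the ADC tumors of m335, m372 and m378 had 9.30, 224 and 206 CPM. The 2 high tumors lay above every normal lung and the ADC tumor of m335 lay below every other library. Over all tumors the log2 fold change was 0.50 (SE 0.852, adjusted p = 0.769 by edgeR), but among the mice at 7 months it was 2.28 (adjusted p = 0.0014 by edgeR, 3 of 3 tumors higher), and without mouse m335 it was 1.75 (adjusted p = 0.0494 by edgeR). The general form Cox6a1 was at 224 to 458 CPM in normal lungs and 249 to 331 CPM in tumors. Per kilobase, Cox6a2 made up 43.1% and 39.8% of both forms in the ADC tumors of m372 and m378, against 6.27% to 15.6% in normal lungs and 2.39% to 15.2% in the other 4 tumors. Itgad, which overlaps it on the other strand, was at most at 1.76 CPM in any library.

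Muscle RNA was present in some libraries, and its markers are given beside these isoforms. The 13 skeletal muscle markers summed to 787 CPM in the normal lung of m335, to 12.3 to 144 CPM in the other normal lungs and to 3.43 to 9.46 CPM in the tumors; 9 of the 12 tested were lower and 0 higher in the tumors by edgeR. The 9 cardiac markers, of which 1 was higher in the tumors by edgeR (Myh6), summed to 774 CPM in the ADC tumor of m372 and 121.5 CPM in that of m378, against 8.55 to 74.1 CPM elsewhere. In the ADC tumor of m378, 105.9 CPM of that sum was Myh6, with Ryr2 at 11.1 (0.0698 to 4.22 CPM elsewhere), Actc1 at 1.70, Tnni3 at 0.158 and Sln at 0 CPM; in that of m372 Tnni3 was at 22.4 and Sln at 20.8 CPM. The myosin heavy chain Myh7, which is in neither muscle list, was at 17.6 to 106 CPM in the normal lungs. In the ADN tumors of m335, m368 and m350 it was at 1781, 2453 and 754 CPM. Its ADC levels in m335, m372 and m378 were 40.7, 1329 and 537 CPM. The tumor contrast of Myh7 was 4.32 (log2, SE 0.976, adjusted p = 0.0231 by edgeR). White fat markers reached 553 CPM in the normal lung of m368, where Cox8b was also highest. They were at 23.3 to 155 CPM in all other libraries. In the same normal lung the 3 brown fat markers summed to 29.2 CPM, with Ucp1 at 22.4 and Cidea at 6.74 CPM, against 0 to 3.50 CPM in all other libraries. The part of these tissues in the isoform levels was not tested.

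The testis form Cox6b2 was at 19.3, 6.06, 9.19, 8.94 and 7.93 CPM in the normal lungs and at 20.2, 5.48 and 5.28 CPM in the ADN tumors, in both cases with the library of m335 highest. Its ADC levels were 8.49, 5.47 and 4.30 CPM, and the tumor contrast was -0.58 (log2, SE 0.276, adjusted p = 0.22 by edgeR).

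Complex I, the entry point for electrons from NADH, had 30 of 37 tested members above 0 in the tumor contrast, with a median log2 fold change of 0.20. On library totals 19 of 37 were above 0 and the median was 0.01. Ndufa12 (chromosome 10, 94199009 to 94220949) was at 29.0, 15.7, 27.2, 22.3 and 16.2 CPM in the normal lungs of m335, m368, m350, m372 and m378. Its ADN levels were 32.6, 42.8 and 46.95 CPM and its ADC levels 51.7, 30.8 and 27.9 CPM. The groups overlapped only through the ADC tumor of m378, which lay below the normal lung of m335 but above that of its own mouse. The log2 fold change was 0.78 (SE 0.202, adjusted p = 0.0385 by edgeR). Leaving out 1 library or mouse often ended this call, with an adjusted p up to 0.122 by edgeR when mouse m378 was left out, and on library totals it was 0.0912. A near-identical copy of its transcript lies in 1 other gene, so its count is uncertain.

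The accessory subunits Ndufs4 and Ndufa6 and the core subunit Ndufs3 had positive estimates in complex I that did not pass. Ndufa6 was at 68.7 to 82.0 CPM in normal lungs and 99.97 to 123.1 CPM in tumors, with a log2 fold change of 0.54 (SE 0.152, adjusted p = 0.0525 by edgeR). Ndufs3 was at 30.4 to 41.5 CPM and 42.6 to 64.5 CPM, with 0.48 (SE 0.143, adjusted p = 0.0664 by edgeR). For both, every tumor was above every normal lung. A near-identical copy of the Ndufs3 transcript lies in 1 other gene, so the count of Ndufs3 is uncertain. Ndufs4 was at 18.4 to 29.3 CPM in normal lungs and at 26.7 to 78.9 CPM in tumors, with a log2 fold change of 0.70 (SE 0.307, adjusted p = 0.191 by edgeR). Its highest tumor was the ADC tumor of m335, and without that library the value was 0.56 (adjusted p = 0.0554 by edgeR). Ndufa6 and Ndufs3 were named after their values had been seen.

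Complex II, which is also the succinate dehydrogenase of the citric acid cycle, had 4 of 4 members with a small positive estimate, from 0.16 for the flavoprotein Sdha to 0.24 for the membrane anchor Sdhc (log2), and none passed the test; on library totals Sdha was at -0.03 and Sdhd at -0.01. The summed level of the 4 genes was 368.4 to 415 CPM in normal lungs, 386 to 428 CPM in ADN tumors and 471 to 525 CPM in ADC tumors. The 3 ADC tumors lay above the other 8 libraries.

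Complex III passes electrons from ubiquinol to cytochrome c. Uqcrfs1 (chromosome 13, 30540312 to 30545317) was at 35.8, 50.4, 41.4, 40.4 and 41.8 CPM in the normal lungs of m335, m368, m350, m372 and m378. The ADN tumors of m335, m368 and m350 had 57.9, 56.2 and 70.8 CPM and the ADC tumors of m335, m372 and m378 had 89.8, 68.0 and 65.6 CPM. Every tumor was above every normal lung. The log2 fold change was 0.70 (SE 0.192, adjusted p = 0.0495 by edgeR), just inside the threshold: it was 0.143 on library totals, 0.0551 with upper quartile scaling and up to 0.157 when a library was left out. The core protein Uqcrc2 had 0.46 (SE 0.176), and the small subunits Uqcr10 and Uqcr11 had -0.08 (SE 0.283) and -0.23 (SE 0.207); none of the 3 passed.

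Complex IV had 10 of 16 tested members above 0 (7 on library totals), and its general forms were not among those called. Cox7a2l was at 144 to 165 CPM in the normal lungs and at 197 to 312 CPM in the tumors, with no overlap and a log2 fold change of 0.63 (SE 0.174, adjusted p = 0.0515 by edgeR). It passed with DESeq2's size factors (adjusted p = 0.041 by edgeR) and without the ADC tumor of m335 (adjusted p = 0.0148 by edgeR). On library totals it was at 0.44 (adjusted p = 0.146 by edgeR), and it passed in 6 of 25 settings, with an adjusted p of at most 0.164 by edgeR. Cox5a, which forms part of the matrix side of the enzyme, was at 45.0 to 70.3 CPM in normal lungs and 57.9 to 160.5 CPM in tumors (0.57, SE 0.28).

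Complex V had 13 of 17 members above 0 (11 on library totals) and the highest median of the complexes, 0.37 (0.18 on library totals), with none past the test. Its highest estimates were those of Atp5f1, the b subunit of the stalk, at 0.58 (SE 0.203, adjusted p = 0.106 by edgeR) and Atp5j2, a membrane subunit, at 0.56 (SE 0.176, adjusted p = 0.0772 by edgeR). The lowest were Atp5sl at -0.20 (SE 0.173) and Atp5e, the small epsilon subunit, at -0.15 (SE 0.308). Atp5f1 had 121 to 171 CPM in normal lungs and 182 to 300 CPM in tumors, with no overlap. Its gene overlaps Wdr77 on the other strand, so its count may hold reads of Wdr77. The genes Atp5g1, Atp5g2 and Atp5g3 encode the same mature c subunit of the membrane ring. Atp5g3 gave 44.2% to 55.6% of their summed level per kilobase in normal lungs and 40.7% to 60.6% in tumors, so the ranges of this share overlapped.

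In all, 7 members had every tumor above every normal lung in CPM: Atp5c1, Atp5f1, Atp5g3, Cox7a2l, Ndufa6, Ndufs3 and Uqcrfs1. That is 8.54% of the members tested, against 3.55% of all genes. Cox4i2, Cox8b and Ndufa4l2 had every tumor below, which is 3.66% against 7.91%.

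**Figure D3:**
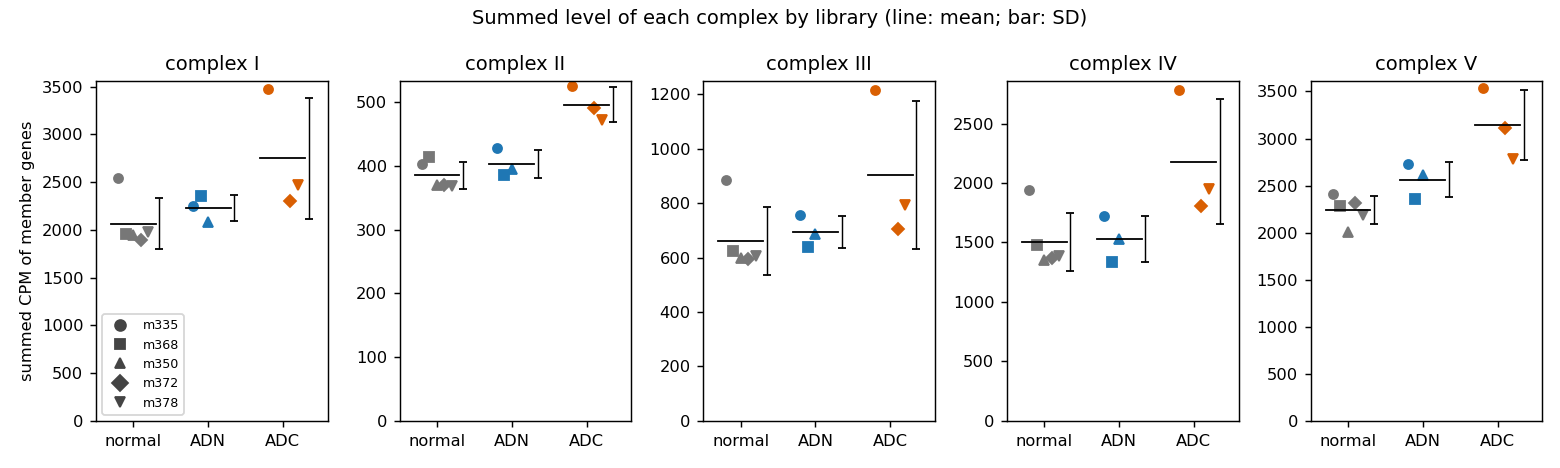
Summed CPM of the member genes of each complex (y axes from 0) by library and group; shapes give the mouse, the line the mean and the bar the SD (5 normal, 3 ADN, 3 ADC). In complexes II and V the 3 ADC tumors lie above all other libraries; in complexes I, III and IV the ADC tumor of m335 stands apart.

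The tumors with the 2 tags were then set against the normal lungs in a fit with 3 groups; the 2 comparisons share the fit and the normal lungs. In ADN tumors Cox4i2, Ndufa4l2 and Cox8b were lower and 0 members higher, or 3.66% of the members against 7.53% of all genes in either direction, 2.68% higher and 4.84% lower. The median over the members was -0.02 and over all genes -0.08. Of the members 37 of 82 were above 0, or 45.1%, against 44.7% of all genes. The sign of the members' median rests on mouse m335 and the scaling. That median was 0.09 with 51 above 0 without the ADN tumor of m335 and 0.15 with 56 without the mouse. It was 0.06 with 53 without the block and -0.21 with 22 on library totals. In ADC tumors Cox4i2 and Ndufa4l2 were lower and 0 members higher, or 2.44% against 4.99% of all genes in either direction, 1.01% higher and 3.98% lower. The median over the members was 0.42, against 0.00104 over all genes. Of the members 71 of 82 were above 0, or 86.6%, against 50.1% of all genes. On library totals the members' median was 0.23 with 62 above 0, against -0.19 over all genes. Without the ADC tumor of m335 the members' median was 0.29 with 69 above 0, against 0.01 over all genes. Uqcrfs1 was the member nearest to a call upward in ADC tumors, at 0.91 (log2, SE 0.223, adjusted p = 0.0622 by edgeR).

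The direct comparison of ADC with ADN tumors called 0 of 15175 genes (0% of all genes and of members, edgeR). At an unadjusted p under 0.05, 13 of 82 members remained in the edgeR test, all higher in ADC, where 6.54% of all genes remained in either direction and 4.23% higher. DESeq2 called 0 members and 125 genes. The members' median was 0.38, against 0.04 over all genes. Of the members 72 of 82 were above 0, or 87.8%, against 53.2% of all genes. Only mouse m335 gave both kinds of tumor. Without its ADC tumor the members' median was 0.21 with 58 of 82 above 0, and without the mouse 0.18 with 50 of 82. The largest of these differences among the general forms of complex IV was that of Cox7b at 1.18 (SE 0.389, adjusted p = 0.744 by edgeR), with 55.9 to 69.4 CPM in ADN and 85.4 to 224 CPM in ADC tumors. Here too the ADC tumor of m335 was the highest.

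Each tumor was also set against the normal lung of its own mouse. The members' median log2 ratio was -0.07, 0.01 and 0.14 in the ADN tumors of m335, m368 and m350, and 0.65, 0.27 and 0.35 in the ADC tumors of m335, m372 and m378. The medians over all genes were between -0.13 and 0.00. Counted by member, 12 of 82 were higher than the own normal lung in all 6 tumors and 3 in none. The like shares over all genes were not computed, so these counts are not read as particular to the members. In the ADC tumors of m372 and m378 the 5 complexes had like medians, from 0.20 to 0.38 and from 0.28 to 0.50, over the 76 tested members left when the tissue-specific forms are set aside.

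**Figure D4:**
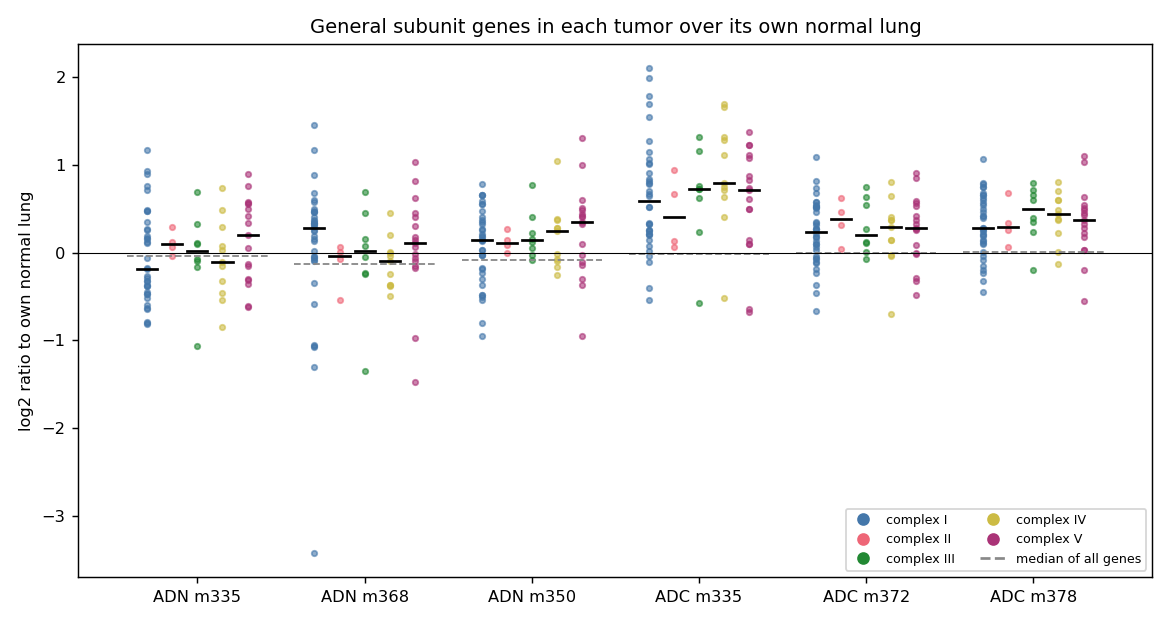
Log2 ratio of each of the 76 general members to its own normal lung (y axis) in each tumor (x axis), colored by complex; black bars are medians per complex and the dashed line is the median of all tested genes. The ADC tumor of m335 is highest in every complex, and the lowest point, in the ADN tumor of m368, is Ndufs5 at -3.42.

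The ADC tumor of m335 was the library in which the general subunits were most raised. There 68 of 82 members exceeded the normal lung, where 49.4% of all genes did. More than 2-fold above it were 22 members, or 26.8% against 17.7% of all genes. The leading members were Ndufs4 at 2.1, Ndufc2 at 1.99, Ndufs5 at 1.78 and Cox7a2 at 1.69 (log2 ratio), all of complexes I and IV. The members have short transcripts, with 54 of the 82 under 1000 bases, and in this library short transcripts were higher across the genome. All 1008 tested genes under 1000 bases had a median of 0.42 and all 7360 of 3000 bases or more had -0.13. The short members had a median of 0.72, and the 28 longer members 0.56. In the ADC tumor of m372 all genes under 1000 bases had a median of -0.09, the short members 0.12 and the longer members 0.52. The 6 alveolar type 2 markers summed to 30070 CPM in the ADC tumor of m335. They summed to 94220 to 123500 CPM in the other tumors and to 37030 to 51010 CPM in normal lungs. The part of transcript length or of cell types in these ratios was not tested. Left without the ADC tumor of m335, the tumor contrast called 11 members, 8 higher and 3 lower, among 3377 genes.

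**Figure D5:**
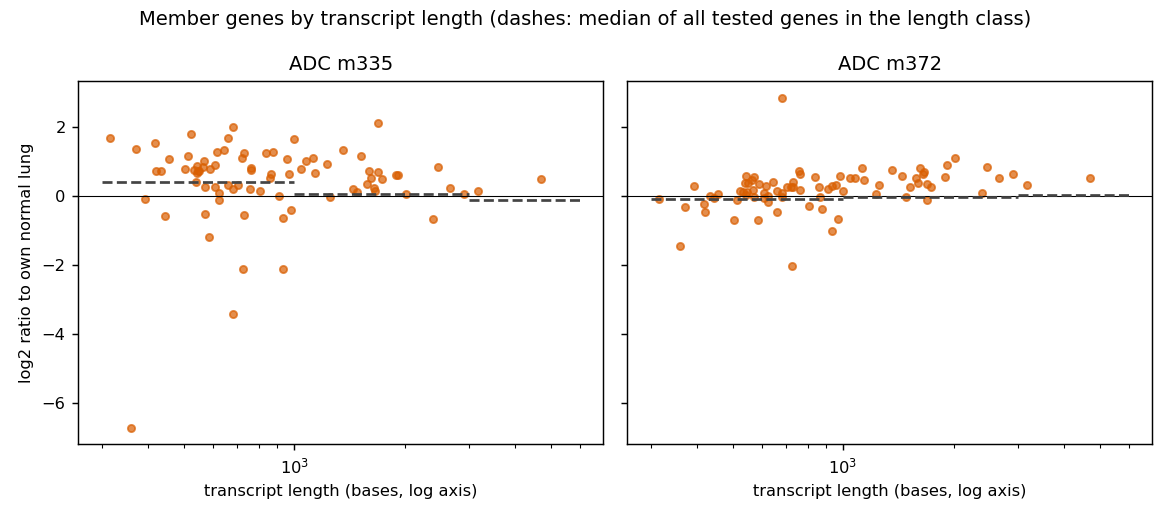
Log2 ratio of each tested member to its own normal lung (y axis) against transcript length (x axis, log scale) in the ADC tumors of m335 and m372; dashes are the median of all tested genes under 1000 bases, of 3000 or more, and between. In m335 the medians of all genes fall from 0.42 to -0.13 with length, and in m372 they lie between -0.09 and 0.01.

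Other genes of the pathway, from lists of genes outside the name rule, gave few calls. Of 5 tested subunits or partners outside the name rule, among them Cyc1, the cytochrome of complex III, and Cycs, the mobile cytochrome c, 0 passed the edgeR test; Cyc1 had 0.35 (SE 0.195) and Cycs 0.53 (SE 0.309), and the list median was 0.53. Of 49 factors that assemble the complexes 0 passed, with a median of 0.12 (-0.07 on library totals), and of 21 regulators of mitochondrial gene expression 0 passed, with a median of 0.21 (0.01 on library totals). All 17 tested genes of the citric acid cycle and pyruvate dehydrogenase had a positive estimate, with a median of 0.28, and 0 passed; on library totals 15 were positive and the median was 0.09. Among 14 tested inhibitors and modulators of respiration, Pdk3, a kinase that inhibits pyruvate dehydrogenase, rose and Higd1b fell. Pdk3 was at 11.5 to 21.4 CPM in normal lungs and at 28.0 to 36.4 CPM in tumors, with no overlap, and had a log2 fold change of 1.02 (SE 0.189, adjusted p = 0.00958 by edgeR). Higd1b, which is also one of the pericyte markers above, had -1.34 (SE 0.347, adjusted p = 0.0394 by edgeR).

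Levels per kilobase of transcript order the genes within a complex. In normal lungs Cox6a1 was the highest member, at 507 ± 169 CPM per kilobase (SD, n = 5), followed by Atp5e at 479 ± 106, values that do not differ beyond their spread. Ndufs1, the largest subunit of complex I, was the lowest general member of its complex at 11.0 ± 2.53 CPM per kilobase, and Atp5s was the lowest of complex V at 2.95 ± 0.363. Cox4i2 was at 121 ± 39.0 CPM per kilobase in normal lungs, 35.4 ± 3.20 in ADN and 28.7 ± 12.1 in ADC tumors, below Cox4i1 in all 11 libraries.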

How the data were processed

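Per the labels, poly-A libraries were made from RNA of integrity number 7 or more and sequenced on an Ion Proton. The submitters' processing notes name build mm10 and the tools Bowtie2 2.1.0, STAR 2.4.1d and Partek. What each tool did, and whether counting used strand, the sources used here do not give. The 14 members that overlap a coding gene on the opposite strand may therefore hold its reads. The deposited values are expected counts for 36285 RefSeq transcripts, not normalized, with the largest written to 3 significant digits by the authors. They were summed by gene and rounded. Every library column was used.

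filterByExpr kept 15175 genes holding 99.9% of the counts. edgeR 4.0.16 (R 4.3.3) fitted a robust quasi-likelihood model on TMM-scaled sizes with the mouse as a fixed block, once for tumors against normal lungs and once for 3 groups. P-values are two-sided and adjusted by Benjamini-Hochberg over all genes, with a threshold of 0.05; standard errors (SE) come from the F statistic. Log2 ratios to the own normal lung used a prior count of 2. Transcript lengths and overlaps come from GENCODE and near-identical copies (12 members) from BLAST+ hits of at least 95% identity over at least 50% of the transcript. Only the fit of tumors against normal lungs was tested on simulated counts, which held no mouse effect and the same dispersion for all genes. The other steps were not tested in this way.

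The mouse numbers in the labels pair the libraries by animal; deviations from the group means correlated between a tumor and its own normal lung at -0.04 to 0.25, and 2 of 6 tumors correlated best with their own. The mouse is the unit of replication, but both tumors of mouse m335 entered the fit and the SDs of the tumors as separate libraries. In the blocked fit a mouse whose only tumor or only normal lung is left out no longer informs the tumor contrast.

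Members and lists were chosen with earlier results of these data known. Named were members past a threshold, the tissue-specific isoforms with their counterparts, the 2 highest and 2 lowest of each complex, the Sdh genes and the called list genes. Marker lists of alveolar, endothelial, ciliated, thymic and fat cells were also summed: of the tested genes, 2 of 6 alveolar type 2 genes were higher, and 2 of 4 alveolar type 1, 4 of 4 endothelial, 0 of 4 ciliated, 0 of 1 thymic, 2 of 5 white fat and 0 of 1 brown fat genes lower. The 4 thymic markers summed to 337 CPM in the normal lung of m372 and to 36.6 CPM in that of m350. In all other libraries their sum was 0.349 to 11.7 CPM. Alternatives were other scalings, no filter, DESeq2 1.42.0, no block, 7 months only, totals without Rn45s and hemoglobin, and leaving out each library or mouse.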

Additional observations from a re-analysis of the deposited data

Results flagged for a closer look

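In 75 groups of CPM values tested for a library far from the others (5 normal lungs or 6 tumors, Dixon's criterion), 22 had one. The groups share libraries, the sums contain genes also tested singly, and the tumors of both tags were pooled. The groups are thus not independent, so the 22 cannot be set against a chance rate. The ADC tumor of m335 was the high one in 8: Cox5a at 160.5 CPM (next 93.3), Cox6b1 at 296 (next 124), Cox7b at 224 (next 112), Ndufs4 at 78.9 (next 43.4), Sdhb at 145 (next 88.7), and the sums of complex I at 3474 (next 2467), complex III at 1215 (next 792) and all members at 11530 CPM (next 8466). The normal lung of m335 was the high one in 9: Atp5sl at 27.7 CPM, Cox6a1 at 457.5, Cox6a2 at 101, Cox6b2 at 19.3, Uqcr11 at 285, and the sums of complex I at 2545, complex III at 884, complex IV at 1938 and all members at 8182 CPM. In that normal lung the skeletal muscle markers summed to 787 CPM, and all genes under 1000 bases had a median log2 ratio of 0.25 to the other normal lungs; the part of either was not tested.

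The ADC tumor of m372 was high in Cox8b at 1.84 CPM (next 0.197) and in Sdha at 202 CPM (next 163). The ADN tumor of m350 was high in Atp5f1 at 300 CPM (next 221), and the ADN tumor of m335 in Cox6b2 at 20.2 CPM (next 8.49). Cox7b2 stood out in the normal lung of m350 at 0.0619 CPM, which is 2 counts against 0 elsewhere.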

How the results depend on the processing

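The calls of Cox4i2 and Ndufa4l2 in tumors against normal lungs held under all 25 settings run, with log2 fold changes from -2.17 to -1.83 and from -1.67 to -1.20. That comparison called 5 members among 1759 genes as reported, 3 among 2073 on library totals, 13 among 3286 with DESeq2 (10 higher and 3 lower), 10 among 2242 without the replicate block (8 higher and 2 lower) and 11 among 3040 in the mice at 7 months (9 higher and 2 lower); the higher and lower calls were 2 and 3 as reported, 4 and 3 with DESeq2's size factors in edgeR and 0 and 3 on library totals. For ADN against normal, 5 members among 1779 genes were called without the block instead of 3 among 1142. For ADC against normal, 12 among 1858 genes were called with DESeq2 and 12 among 1546 without the block instead of 2 among 757. Leaving out 1 library or mouse gave 2 to 11 called members for tumors, 0 to 3 for ADN and 0 to 2 for ADC against normal. In tumors against normal lungs, the 11 came without the ADC tumor of m335 and the 2 without the normal lung of m335 or any library of m350; no ADN call held without the ADN tumor of m335 or a library of m350, and no ADC call without a library of m378. ADC against ADN kept 0 called members under each setting run. The cause of these shifts was not tested, other than that fewer libraries entered the fits that leave some out. Over 31 tested members named by the rule and 24 alternatives, 691 of 744 values kept their side of the threshold, 39 lost a call, 14 gained one and 0 called values changed sign; 38 values of 11 members that were not called as reported had the other sign. Ndufa12 and Uqcrfs1 were each called in 11 of the 25 settings and Cox8b in 14. For m368, m350, m372 and m378, leaving out the normal lung, the tumor or the whole mouse gave the same called members. The tallies over settings thus count such a result more than once. Cox6a2 passed only in the mice at 7 months (2.28) and without mouse m335 (1.75). Depth limits Cox7b2 and Cox8c, which had at most 2 counts in all, and Cox8b, whose tumor libraries held 0 to 80 counts.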

Other observations

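Ndufs5, a small accessory subunit of complex I, varied widely between tumors. It was at 14.6, 8.48, 11.4, 9.22 and 9.67 CPM in the normal lungs of m335, m368, m350, m372 and m378. In the ADN tumors of m335, m368 and m350 it was at 27.9, 0.733 and 5.86 CPM, and in the ADC tumors of m335, m372 and m378 at 50.4, 10.1 and 8.69 CPM. The ADC tumors of m372 and m378 thus lay within the range of the normal lungs. Both tumors of m335 lay above that range and the ADN tumors of m368 and m350 below it. One other gene carries a near-identical copy of its transcript, so its count is uncertain.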
